A study of Mus musculus with 24 samples.

Results

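The genes considered here were 10 markers of macrophage identity and polarization, namely Csf1, Csf1r, Adgre1, Mrc1, Cd163, Arg1, Nos2, C1qa, C1qb and Il10, chosen by symbol from the 54532 genes of the tumor tables and the 35275 of the culture tables, and all 10 were listed in both. They were followed across 6 groups of bulk RNA-seq libraries from D2.1 and D2A1, a pair of mouse mammary tumor lines from hyperplastic alveolar nodules of BALB/c mice, of which D2A1 proliferates rapidly and D2.1 is a model of dormancy. The groups were D2.1 and D2A1 cells in culture (3 libraries each), D2.1 and D2A1 tumors from female BALB/c mice (4 each) and D2.1 and D2A1 tumors from female SCID-beige mice (5 each). Tumors were grown from cells implanted in the mammary fat pad and collected at a set size. BALB/c tumors thus formed in an immunocompetent host and SCID-beige tumors in a host that lacks T and B cells and has defective NK cells. SCID-beige mice keep macrophages but carry the scid mutation of Prkdc and the beige mutation of Lyst. Whether either mutation changes macrophages themselves was not tested. D2A1 grows faster, so at a set size the lines likely differ in time since implantation, which the labels do not give. In tumors, effects of line and of tumor age cannot be told apart. Each line is 1 established cell line, tumors were extracted whole without sorting, and the labels give no treatment and no age. Nothing in the labels says that the 3 cultures of a line were grown separately, so p-values there measure the spread between these samples, which may be technical.

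Macrophages depend on the receptor tyrosine kinase CSF1R, which is activated by the cytokines CSF1 and IL-34, for survival and differentiation. Adgre1 encodes F4/80, the classical surface marker of mouse macrophages, and C1qa and C1qb encode chains of the complement recognition molecule C1q, which macrophages make in most tissues. Polarization is commonly read from Mrc1 (the mannose receptor CD206), Cd163 (the hemoglobin scavenger receptor) and Arg1 (arginase 1, which turns arginine into ornithine and urea) on the alternatively activated side, and from Nos2 (inducible nitric oxide synthase, which uses the same arginine to make nitric oxide) on the classical side. Il10 encodes an anti-inflammatory cytokine that macrophages and regulatory T cells can secrete.

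Library totals ran from 16837260 to 24818234 counts in culture and from 13566949 to 18355153 in tumors, so that a floor of 3 counts corresponded to 0.121 to 0.178 and 0.163 to 0.221 CPM (counts scaled to library size), which covers counting error only. Some tumors of both lines carried transcripts of other tissues. D2A1 tumors held up to 255 CPM of adipocyte and 61.2 of skeletal muscle markers in BALB/c mice, and up to 105 and 18.7 in SCID-beige mice. In D2.1 BALB/c replicate 1, milk protein genes summed to 391 CPM, skeletal muscle markers to 342 and adipocyte markers to 523, against at most 0.771, 109 and 187 in the other 3 tumors of its group. D2.1 BALB/c replicate 4 held 125 CPM of skin keratins. D2.1 SCID-beige replicates 4 and 5 held 255 and 199 CPM of muscle markers, against at most 18.1 in the rest of that group. In bulk tumors, fewer macrophages and less of a transcript in each macrophage cannot be told apart. The summed level of 18 pan-macrophage markers other than these genes was 2621 to 3342 CPM in D2.1 BALB/c, 2835 to 4844 in D2A1 BALB/c, 2000.5 to 3742 in D2.1 SCID-beige and 1964 to 2834 in D2A1 SCID-beige tumors, with ranges that overlapped between the lines in either host, and 42.4 to 46.7 and 13.3 to 14.1 in cultured D2.1 and D2A1 cells.

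RefSeq promoter sequences were at hand for 4 of the 10 genes. They are shown because the genes fall into pairs in culture: Csf1 and Cd163 were read in cultured tumor cells, whereas Mrc1 and C1qb were at or near the floor there and appeared in tumors. Each is the 250 bases before the transcription start, 5′ to 3′ on the gene's own strand (build GRCm38.p6), for Csf1 at chr3:107760470-107760719 (- strand), Cd163 at chr6:124304401-124304650 (+ strand), Mrc1 at chr2:14229164-14229413 (+ strand) and C1qb at chr4:136886201-136886450 (- strand). Capitals mark the core recognized by PU.1, the transcription factor of the myeloid lineage, written GAGGAA or on the other strand TTCCTC.
Csf1: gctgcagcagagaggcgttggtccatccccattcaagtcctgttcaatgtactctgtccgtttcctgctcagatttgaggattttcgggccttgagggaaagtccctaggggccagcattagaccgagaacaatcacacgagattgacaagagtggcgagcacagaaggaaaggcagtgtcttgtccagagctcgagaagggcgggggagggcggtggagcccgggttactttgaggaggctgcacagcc
Cd163: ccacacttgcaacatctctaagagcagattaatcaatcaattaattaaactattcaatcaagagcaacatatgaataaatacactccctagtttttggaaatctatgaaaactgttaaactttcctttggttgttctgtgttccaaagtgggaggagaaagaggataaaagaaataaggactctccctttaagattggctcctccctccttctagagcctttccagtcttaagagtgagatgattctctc
Mrc1: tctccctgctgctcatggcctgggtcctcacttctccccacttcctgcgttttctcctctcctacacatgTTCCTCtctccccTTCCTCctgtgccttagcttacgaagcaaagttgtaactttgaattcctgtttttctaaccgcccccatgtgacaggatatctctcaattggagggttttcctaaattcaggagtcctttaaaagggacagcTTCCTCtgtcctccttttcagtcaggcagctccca
C1qb: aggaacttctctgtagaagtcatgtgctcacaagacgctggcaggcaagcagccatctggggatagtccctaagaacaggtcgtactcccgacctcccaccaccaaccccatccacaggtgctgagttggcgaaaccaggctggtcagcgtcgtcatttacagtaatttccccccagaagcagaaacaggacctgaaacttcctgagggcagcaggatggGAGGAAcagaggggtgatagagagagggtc
The core occurred 3 times in the Mrc1 window and 1 time in the C1qb window, with 0 matches for Csf1 and Cd163. Among all 32851 promoters of the same length, 23.3% held it. The C/EBP motif TTGCNNAA, searched on both strands, was in none of the 4 windows and in 9.56% of all promoters. These are matches of letters, and binding was not measured.

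In culture, the ligand Csf1 and the scavenger receptor Cd163 were the only ones of the 10 genes with enough counts to be tested, and they went in opposite directions. Csf1 counts corresponded to 199.7, 208 and 208 CPM in the 3 D2.1 cultures and 417, 387 and 448 CPM in the 3 D2A1 cultures. All D2.1 cultures were below all D2A1 cultures, and the fitted level was 2.03-fold lower in D2.1 (log2 fold change -1.02, SE 0.12, adjusted p = 1.8e-04; edgeR's quasi-likelihood test, adjusted by Benjamini-Hochberg over 12489 genes). Cd163 stood at 10.3, 11.9 and 11.6 CPM in D2.1 and 0.346, 0.340 and 0.0532 CPM in D2A1 cultures, and was 45.3-fold higher in D2.1 (log2 fold change 5.50, SE 0.41, adjusted p = 1.4e-05). With 3 libraries a side, the exact permutation test of a single gene cannot go below p = 0.1, which both genes reached. Of all genes tested, 44.9% were called, 24.2% higher and 20.7% lower in D2.1, so a called gene was common in this comparison.

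The defining markers of macrophages were at or near 0 in the cultures in which Cd163 was read. Csf1r, the receptor itself, had 1, 16 and 7 counts in the D2.1 cultures and 0, 1 and 0 in the D2A1 cultures. Adgre1 had 0, 3 and 0 and 0, 0 and 0 counts, and Mrc1 had 1, 1 and 1 and 0, 2 and 0. C1qa had 0, 8 and 0 counts in the D2.1 cultures, C1qb had 1, 8 and 0, and both were at 0 in every D2A1 culture. Most of the reads of Csf1r, Adgre1, C1qa and C1qb lay in D2.1 replicate 2, the deepest of the 6 culture libraries, whereas Cd163 had 190 to 269 counts in the 3 D2.1 cultures and was not concentrated in 1 of them. Nos2 had 15, 7 and 0 counts in D2.1 cultures and none in D2A1 cultures, and Arg1 had at most 6 counts in any culture. Csf1r and Nos2 were called higher in D2.1 cultures by DESeq2 (adjusted p = 0.035 and 0.032) and by edgeR without its expression filter (adjusted p = 0.020 and 0.032), from these small counts.

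**Figure D1:**
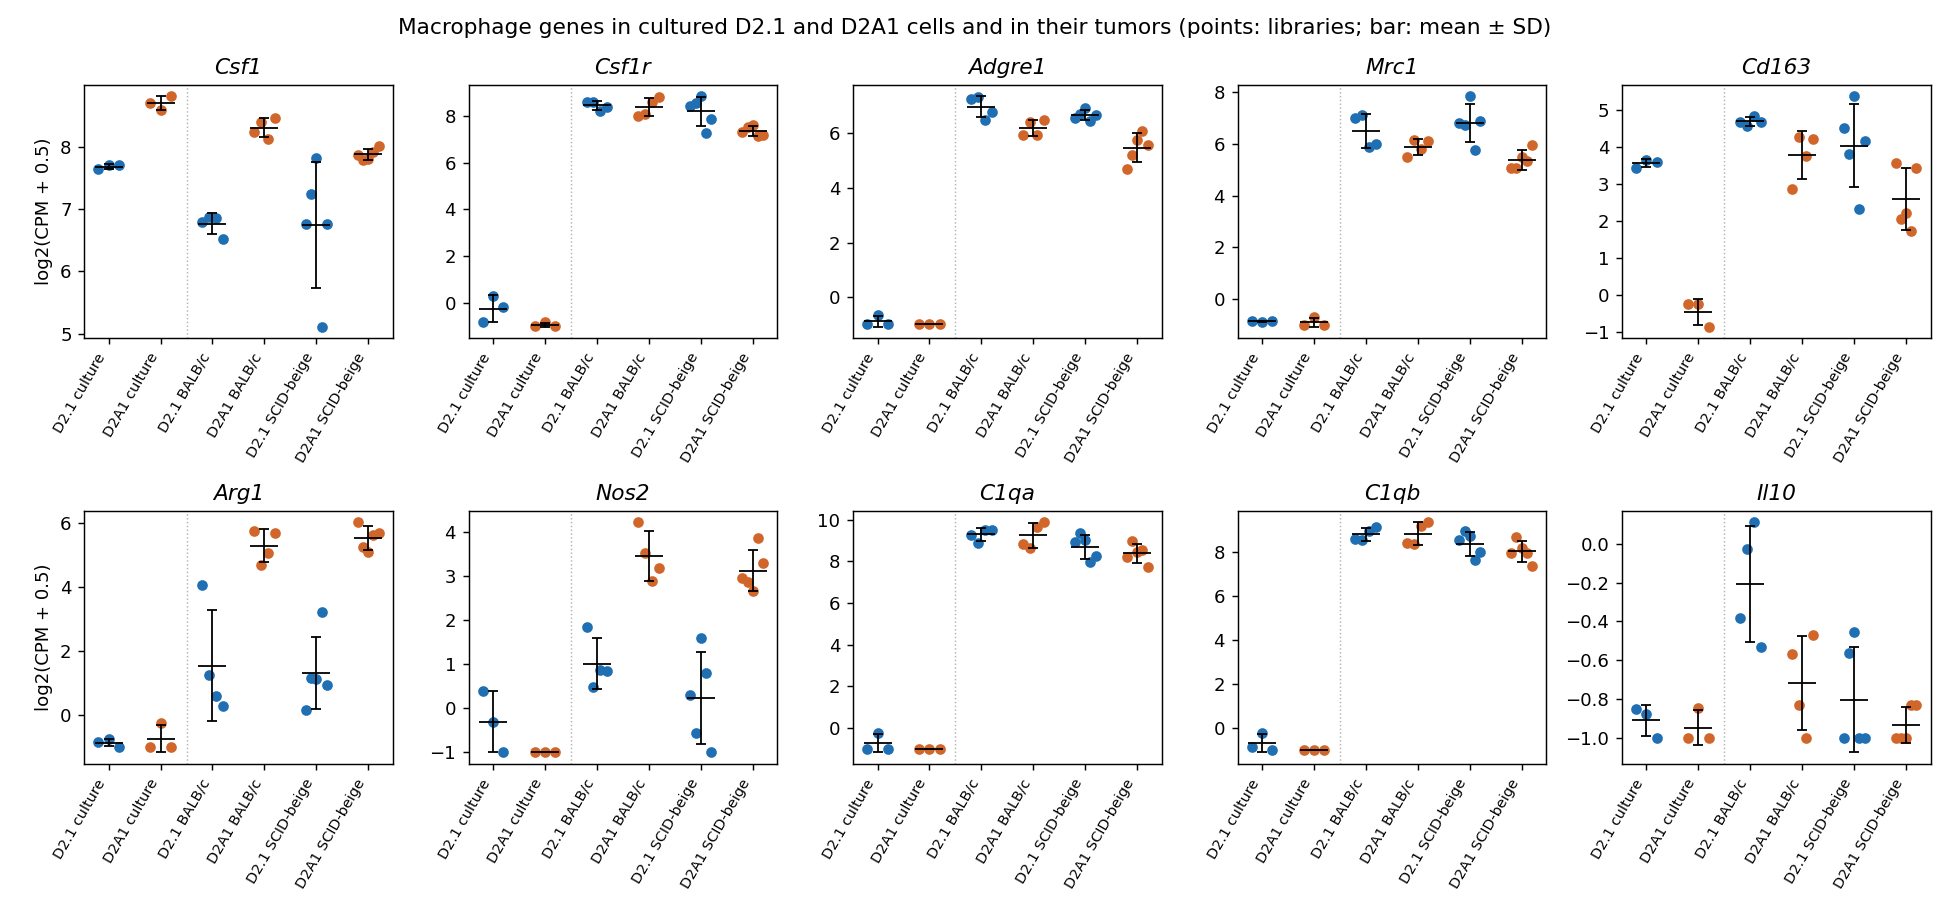
Level of each of the 10 genes in each library, as log2(CPM + 0.5), in the 6 groups (blue, D2.1; orange, D2A1; points, libraries in replicate order; bars, mean ± SD on the log2 scale), with cultures to the left of the dotted line. Cd163 was higher in D2.1 than in D2A1 cultures, Arg1 and Nos2 separated the lines in tumors, and Il10 stayed below 1 CPM in all 24 libraries.

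Set side by side, with no test because cultures and tumors were counted separately, the 10 genes differed in how much the cultured cells themselves carried. Csf1 averaged 205 ± 4.82 CPM (SD, n = 3) in D2.1 cultures and 109 ± 11.8 (n = 4) and 126 ± 70.6 (n = 5) in D2.1 tumors of BALB/c and SCID-beige mice. In D2A1 it averaged 418 ± 30.6, 318 ± 34.03 and 236 ± 15.2 CPM in the same order. Cd163 averaged 11.3 ± 0.834 CPM in D2.1 cultures, within the range of 4.53 to 40.4 CPM of D2.1 SCID-beige tumors. For Cd163 in D2.1 tumors, transcripts of tumor cells and of macrophages cannot be told apart in these libraries. The remaining 8 genes were at most 0.816 CPM in any culture.

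Between genes, levels are compared per length in the deposited FPKM values, within the tumor tables only, because the gene lengths behind the FPKM of the culture tables differed (for Adgre1 by 2.02-fold). The C1q chains led in every tumor group. In D2.1 BALB/c tumors, mean FPKM was 608 ± 114 for C1qa, 407 ± 75.4 for C1qb, 81.2 ± 10.99 for Csf1r, 78.9 ± 21.01 for Adgre1, 54.1 ± 6.74 for Csf1 and 25.9 ± 11.4 for Mrc1. Cd163 at 6.41 ± 0.594 and Arg1 at 5.72 ± 8.80 came next, but the Arg1 mean rested on replicate 1, with 18.9, 2.09, 1.12 and 0.772 FPKM in the 4 tumors against 6.54, 5.83, 7.19 and 6.10 for Cd163. Arg1 was therefore above Cd163 in replicate 1 and below it in the other 3 tumors. Nos2 at 0.599 ± 0.372 and Il10 at 0.287 ± 0.137 were lowest. The order differed in D2A1 BALB/c tumors, where Csf1 at 165 ± 19.97 FPKM stood above Csf1r at 81.3 ± 21.1, and Arg1 at 48.2 ± 17.8 was level with Adgre1 at 47.7 ± 10.02. There Nos2 at 4.21 ± 2.02 and Cd163 at 3.73 ± 1.44 were within each other's spread.

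Between the lines in tumors, Arg1 and Nos2 were lower in D2.1 and the surface receptors Adgre1 and Cd163 were higher in D2.1 in both hosts, while the C1q chains were called in neither. In BALB/c mice, 9 of the 10 genes were tested and 5 were called, where 32.6% of all 14953 genes were. Of these, 2 were higher in D2.1 (Adgre1 and Cd163) against 16.8% of all genes, and 3 were lower (Csf1, Arg1 and Nos2) against 15.8%. In SCID-beige mice, 6 of 9 were called, where 32.1% of 14355 genes were. There 4 were higher in D2.1 (Csf1r, Adgre1, Mrc1 and Cd163) against 17.2% of all genes, and 2 were lower (Arg1 and Nos2) against 14.8%. The median log2 fold change over the tested members was -0.02 in BALB/c and 0.35 in SCID-beige mice, beside -0.02 and 0.02 over all genes.

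**Figure D2:**
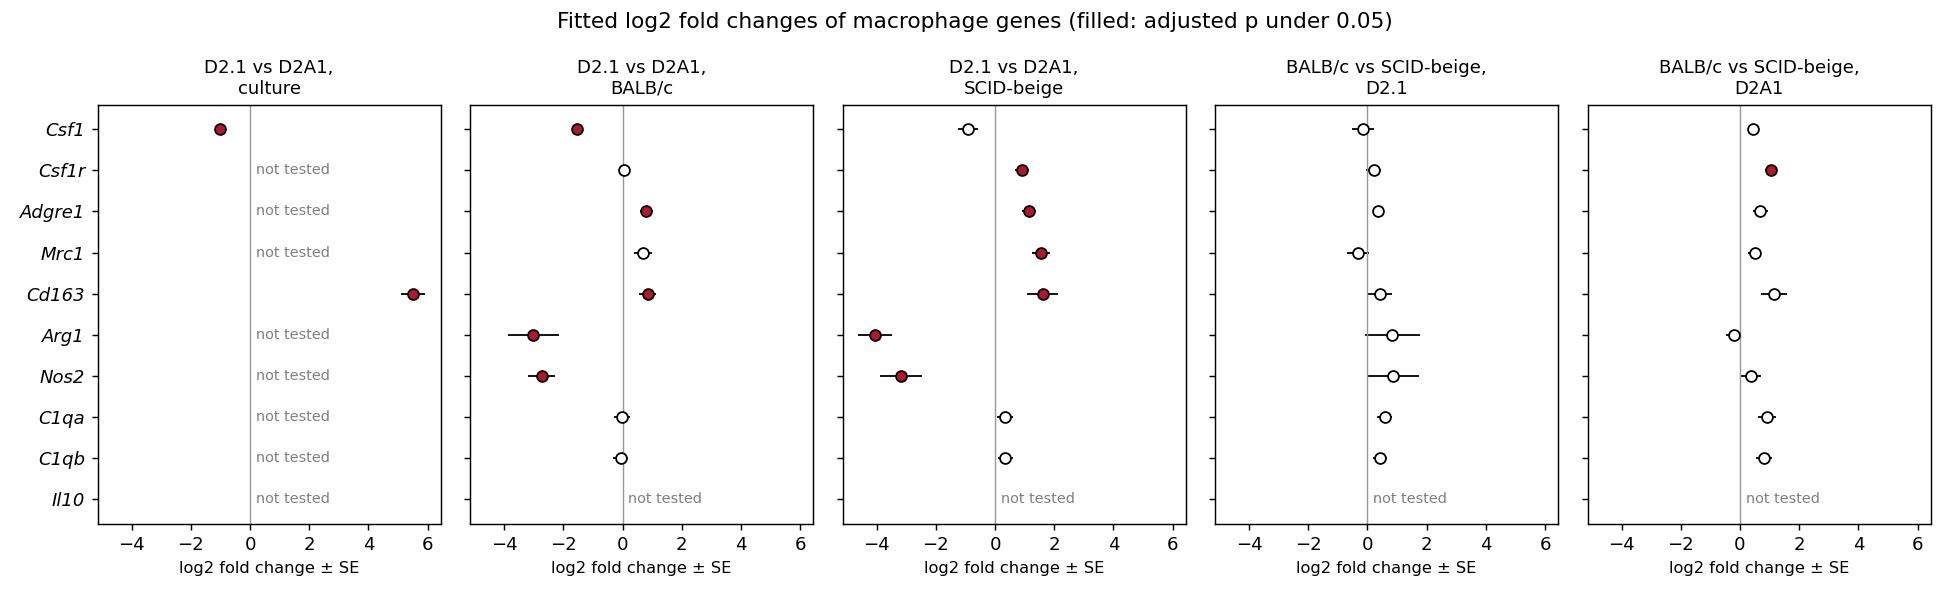
Fitted log2 fold change (x axis) of each gene (y axis) in the 5 comparisons, with D2.1 minus D2A1 in the first 3 panels and BALB/c minus SCID-beige in the last 2 (bars, standard error; filled points, adjusted p under 0.05; genes under the expression filter are marked not tested). Arg1 and Nos2 lie to the left of 0 in both tumor comparisons of the lines, Adgre1 and Cd163 to the right, and 1 gene, Csf1r in D2A1, is filled in the comparisons of the hosts.

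The ligand Csf1 was 111, 117, 116 and 91.6 CPM in the 4 D2.1 BALB/c tumors and 301, 338, 279.8 and 354 CPM in the 4 D2A1 BALB/c tumors. The groups did not overlap, and Csf1 was 2.91-fold lower in D2.1 (log2 fold change -1.54, SE 0.14, adjusted p = 2.5e-05; exact permutation p = 0.029, the smallest that 4 against 4 allows). In SCID-beige mice it was 108, 151, 227, 34.1 and 108 CPM in the 5 D2.1 tumors and 233, 222, 223, 241 and 259 in the 5 D2A1 tumors. D2.1 replicate 3 lay within the D2A1 range and replicate 4 far below its group, and the difference missed the threshold (log2 fold change -0.90, SE 0.34, adjusted p = 0.058). It passed on leaving out D2.1 replicate 3 (log2 fold change -1.24, adjusted p = 0.0082) or replicate 4 (-0.71, adjusted p = 0.021), with DESeq2 (adjusted p = 0.023) and with one fit of all tumors (adjusted p = 0.020). It also passed with the replicate number as a block in edgeR (adjusted p = 0.037), although the numbers are not shown to pair these tumors.

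Csf1r, the receptor, was 389.8, 386, 298 and 336 CPM in D2.1 and 252, 273, 384 and 443 CPM in D2A1 tumors of BALB/c mice. The groups overlapped, and the difference was 0.07 on the log2 scale with a 95% interval of -0.37 to 0.50 (adjusted p = 0.83). In SCID-beige mice, Csf1r was 340.0, 377, 455, 154 and 235 CPM in D2.1 and 157, 184, 197, 142 and 147 CPM in D2A1 tumors. Except for D2.1 replicate 4, every D2.1 tumor was above every D2A1 tumor, and Csf1r was 1.89-fold higher in D2.1 (log2 fold change 0.92, SE 0.24, adjusted p = 0.010). Ligand and receptor thus differed between the lines in different hosts under the same threshold, but whether the line effect differed between hosts has its own test, given with the interaction.

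Among the identity markers, Adgre1 was 152, 159, 90.3 and 111 CPM in D2.1 and 61.6, 84.2, 60.3 and 89.8 CPM in D2A1 tumors of BALB/c mice. The groups did not overlap, the lowest D2.1 tumor being just above the highest D2A1 tumor, and Adgre1 was 1.74-fold higher in D2.1 (log2 fold change 0.80, SE 0.22, adjusted p = 0.018). This call was lost without D2.1 replicate 1 (adjusted p = 0.053), D2A1 replicate 1 (0.057) or D2A1 replicate 3 (0.061), and without both D2.1 tumors that held milk or skin transcripts (0.096), with log2 fold changes of 0.71 to 0.76. In SCID-beige mice it was 94.2, 105, 121, 86.5 and 102 CPM against 25.5, 36.9, 53.3, 68.1 and 47.2 CPM, again without overlap and 2.22-fold higher in D2.1 (log2 fold change 1.15, SE 0.22, adjusted p = 0.0014; exact permutation p = 0.0079, the smallest that 5 against 5 allows).

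C1qa was 619.7, 475, 729 and 741 CPM in D2.1 and 452, 404, 799 and 948 CPM in D2A1 tumors of BALB/c mice, and C1qb was 382, 367, 494 and 558 and 334, 329, 580.1 and 646 CPM. The ranges of the lines overlapped, and the 95% intervals of the log2 difference were -0.63 to 0.60 for C1qa and -0.62 to 0.49 for C1qb. In SCID-beige mice, C1qa was 484, 650.1, 519, 248 and 302 CPM in D2.1 and 298, 500.3, 345, 379 and 211.8 CPM in D2A1 tumors. C1qb was 363, 485, 425, 199 and 252 and 242, 409, 288, 247 and 164 CPM there. Neither gene was called (log2 fold change 0.34, SE 0.27, adjusted p = 0.36 for C1qa; log2 fold change 0.35, SE 0.26, adjusted p = 0.34 for C1qb), with intervals of -0.23 to 0.92 and -0.21 to 0.92.

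The endocytic receptor Mrc1 was higher in D2.1 in SCID-beige mice, and the scavenger receptor Cd163 in both hosts. Mrc1 was 113, 107, 229, 54.03 and 118 CPM in D2.1 and 32.8, 32.8, 44.9, 40.4 and 62.02 CPM in D2A1 tumors of that host. A single D2.1 tumor, replicate 4, lay within the D2A1 range, and Mrc1 was 2.94-fold higher in D2.1 (log2 fold change 1.55, SE 0.31, adjusted p = 0.0019). In BALB/c mice it was 129, 137, 58.4 and 63.8 CPM against 45.2, 71.6, 55.02 and 69.1 CPM. D2.1 replicates 1 and 2 were above all D2A1 tumors and replicates 3 and 4 were among them, and the difference was not called (log2 fold change 0.70, SE 0.30, adjusted p = 0.0997; it passed only without D2.1 replicate 3, with log2 fold change 0.88 and adjusted p = 0.046).

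Cd163 was 24.9, 23.1, 28.01 and 24.7 CPM in D2.1 and 6.72, 18.7, 12.97 and 17.8 CPM in D2A1 tumors of BALB/c mice. The groups did not overlap, and Cd163 was 1.80-fold higher in D2.1 (log2 fold change 0.85, SE 0.29, adjusted p = 0.045). The call was close to the threshold and was lost without any single one of the 4 D2.1 tumors or without D2A1 replicate 1 or 3 (adjusted p = 0.051 to 0.10, log2 fold change 0.61 to 0.88), in one fit of all tumors (adjusted p = 0.22) and without both D2.1 tumors with milk or skin transcripts (0.15). In SCID-beige mice it was 22.1, 13.4, 40.4, 4.53 and 17.3 CPM against 11.2, 3.68, 4.11, 2.78 and 10.1 CPM. D2.1 replicate 4 lay among the D2A1 tumors, and Cd163 was 3.07-fold higher in D2.1 (log2 fold change 1.62, SE 0.52, adjusted p = 0.030). This call was lost without D2.1 replicate 1 or 3 or D2A1 replicate 2, 3 or 4 (adjusted p = 0.056 to 0.089, log2 fold change 1.16 to 1.54) and without the expression filter (adjusted p = 0.11). Cultured D2.1 cells alone carried 11.3 ± 0.834 CPM of Cd163, and the part of tumor cells in the tumor difference was not tested.

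Among these genes in tumors, the arginine-using enzymes had the largest fitted differences between the lines in either host, and both were lower in D2.1. Arg1 was 53.3, 24.9, 32.9 and 50.7 CPM in the 4 D2A1 BALB/c tumors and 64.5, 37.1, 33.7, 48.7 and 50.4 CPM in the 5 D2A1 SCID-beige tumors. In D2.1 it was 16.2, 1.87, 0.986 and 0.706 CPM in BALB/c and 0.614, 1.70, 1.67, 8.71 and 1.38 CPM in SCID-beige tumors. No D2.1 tumor reached the lowest D2A1 tumor in its host. Arg1 was 8.05-fold lower in D2.1 in BALB/c mice (log2 fold change -3.01, SE 0.86, adjusted p = 0.022) and 16.6-fold lower in SCID-beige mice (log2 fold change -4.05, SE 0.57, adjusted p = 1.2e-04). Within D2.1, BALB/c replicate 1 and SCID-beige replicate 4 stood above the rest, and both held skeletal muscle markers at 342 and 255 CPM. The log2 fold change was -5.07 (adjusted p = 6.0e-05) without the former and -5.16 (adjusted p = 3.1e-07) without the latter. In BALB/c mice the call was lost without D2A1 replicate 4 (adjusted p = 0.053) and without the expression filter (0.12).

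Nos2 was 18.1, 11.01, 6.88 and 8.49 CPM in D2A1 BALB/c and 7.22, 6.73, 5.78, 13.96 and 9.33 CPM in D2A1 SCID-beige tumors. In D2.1 it was 3.11, 0.904, 1.33 and 1.28 CPM in BALB/c and 0.737, 0.176, 2.53, 1.25 and 0 CPM in SCID-beige tumors, the last from 0 to 44 counts. All D2.1 tumors were below all D2A1 tumors of the same host. Nos2 was 6.62-fold lower in D2.1 in BALB/c mice (log2 fold change -2.73, SE 0.46, adjusted p = 0.0013) and 9.01-fold lower in SCID-beige mice (log2 fold change -3.17, SE 0.71, adjusted p = 0.0039), and kept these calls under each alternative run. Arg1 and Nos2, read as markers of opposite polarization states, thus went the same way between the lines. Cd163, on the alternative side with Arg1, went the other way in both hosts, as did Mrc1 where it was called, in SCID-beige mice. In culture neither Arg1 nor Nos2 was above 0.816 CPM in any library.

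Il10 was low in every library. It had 5, 8, 10 and 3 counts in the D2.1 BALB/c tumors and 3, 1, 0 and 4 in the D2A1 BALB/c tumors. In SCID-beige mice it had 0, 3, 4, 0 and 0 counts in D2.1 and 0, 0, 0, 1 and 1 in D2A1 tumors, and at most 1 count in any culture. It did not pass the expression filter in any comparison, so no fold change is given. By the exact permutation test on log2(CPM + 0.5), D2.1 tumors of BALB/c against SCID-beige mice gave an unadjusted p of 0.032, with 0.381 ± 0.181 against 0.0812 ± 0.113 CPM and ranges that overlapped, and the lines in BALB/c mice gave 0.057. After adjustment over the 5 comparisons, the smallest p of these exact permutation tests was 0.14.

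Between hosts, 1 call was made over both lines. For D2.1 tumors, 0 of 9 genes were called between BALB/c and SCID-beige mice by edgeR, 1 (C1qa) had an unadjusted p under 0.05, and DESeq2 also called 0. The median log2 fold change over the tested genes was 0.41, beside -0.01 over all genes. Of all 14929 genes, 0.891% were called, 0.871% higher and 0.0201% lower in BALB/c. The 95% interval of the log2 difference was -0.35 to 0.77 for Csf1r, -0.04 to 0.76 for Adgre1, 0.01 to 1.14 for C1qa and -1.21 to 2.90 for Arg1, so changes of several-fold in Arg1 lay within it. Without D2.1 BALB/c replicate 1 the fitted Arg1 difference turned from 0.85 to -1.22, with no call in either fit. For D2A1 tumors, 1 of 9 genes was called, Csf1r, which was 2.05-fold higher in BALB/c than in SCID-beige tumors without overlap (log2 fold change 1.04, SE 0.19, adjusted p = 0.023; exact permutation p = 0.0079), where 1.17% of 14572 genes were called, 0.906% higher and 0.261% lower in BALB/c. The call was lost without D2A1 BALB/c replicate 3 (adjusted p = 0.065) or 4 (0.13) and without SCID-beige replicate 1 (0.093), 4 (0.071) or 5 (0.054), with log2 fold changes of 0.85 or more. Before adjustment, 7 of 9 genes in D2A1 had p under 0.05 by edgeR, all of them higher in BALB/c. The all-gene share at that unadjusted threshold is not given here. The median log2 fold change of the 9 genes in D2A1 was 0.68, beside 0.01 over all genes. Fitted differences were above 0 for 8 of 9 genes, among them C1qa at 0.91 (adjusted p = 0.21) and Cd163 at 1.14 (adjusted p = 0.36). The exception was Arg1 at -0.21 (adjusted p = 0.91), whose D2A1 tumors spanned 24.9 to 53.3 CPM in BALB/c and 33.7 to 64.5 CPM in SCID-beige mice.

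Whether the difference between the lines itself depended on the host was tested as an interaction in one fit of the 18 tumors. By edgeR, 0 of 9 genes were called, 1 (Csf1r) had an unadjusted p under 0.05, and DESeq2 called 0, where 0.0187% of 16036 genes were called by edgeR. For Csf1r, the D2.1 minus D2A1 difference in BALB/c minus that in SCID-beige mice was -0.86 (SE 0.34, adjusted p = 0.51). It was -0.85 (SE 0.47, adjusted p = 0.67) for Mrc1 and -0.64 (SE 0.43, adjusted p = 0.74) for Csf1. A call in 1 host and not in the other is therefore not shown to be a difference between hosts for any of these genes.

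To set the polarization genes against the receptor shared by macrophages, each tumor's level was divided by its own Csf1r level, as log2(CPM + 0.5) of the gene minus that of Csf1r. Relative to Csf1r, Arg1 was -6.92 ± 1.61 against -3.07 ± 0.59 in D2.1 against D2A1 BALB/c tumors and -6.88 ± 1.64 against -1.83 ± 0.55 in SCID-beige tumors (mean ± SD, log2 ratio). For Nos2, the same ratios were -7.44 ± 0.56 against -4.92 ± 0.92 and -7.96 ± 1.12 against -4.24 ± 0.66. Neither gene's groups overlapped in either host, and the exact permutation p was 0.029 in BALB/c and 0.0079 in SCID-beige mice for each gene, the smallest that these group sizes allow. Adgre1 relative to Csf1r was -1.49 ± 0.20 against -2.17 ± 0.41 in BALB/c (exact permutation p = 0.057) and -1.52 ± 0.49 against -1.89 ± 0.60 in SCID-beige mice (exact permutation p = 0.33), with groups that overlapped. C1qa and C1qb relative to Csf1r were 0.51 ± 0.24 against 1.02 ± 0.40 and 0.17 ± 0.20 against 0.66 ± 0.36 in SCID-beige mice (exact permutation p = 0.040 and 0.032). Between hosts in D2A1, Arg1 relative to Csf1r was -3.07 ± 0.59 against -1.83 ± 0.55 in BALB/c against SCID-beige tumors (exact permutation p = 0.040). Csf1r itself was called between the lines in SCID-beige mice (log2 fold change 0.92) and between hosts in D2A1 (1.04). Without division, C1qa and C1qb had log2 fold changes of 0.34 and 0.35 in the former and Arg1 -0.21 in the latter, none called. Ratios in these comparisons therefore carry the difference of Csf1r as well. Over the family of 32 ratios, 9 had an unadjusted p under 0.05 by the exact permutation test, 0 passed Benjamini-Hochberg adjustment, and the smallest adjusted p was 0.13. Il10 ratios, whose numerators were at or near the floor, are not interpreted.

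**Figure D3:**
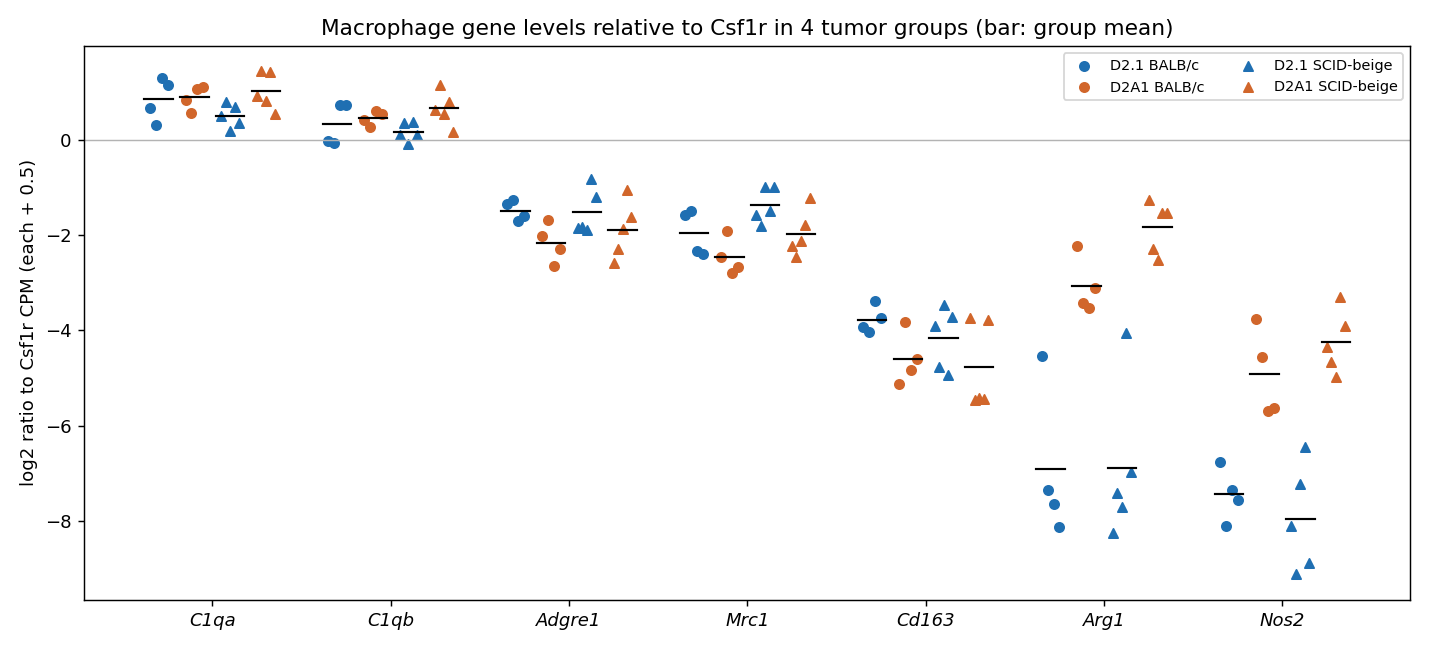
Log2 ratio of each gene to Csf1r in the same tumor (y axis) for 7 genes (x axis) in the 4 tumor groups (blue, D2.1; orange, D2A1; circles, BALB/c; triangles, SCID-beige; points, tumors; bars, group means). Arg1 and Nos2 lie lower in D2.1 than in D2A1 in each host without overlap, whereas the other 5 genes overlap between the lines.

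Among tumors of the same group, some of these genes varied together. Deviations of log2(CPM + 0.5) from the group means were correlated over 18 tumors, with 100000 permutations within groups and adjustment over 45 pairs. C1qa and C1qb, which lie in 1 gene cluster on chromosome 4, tracked each other most closely (Pearson's r = 0.97, permutation p = 1e-05, adjusted p = 4.5e-04, Spearman's rho = 0.98, permutation p = 1e-05, adjusted p = 4.5e-04; 1e-05 is the smallest p these permutations give). Csf1r rose and fell with C1qb (Pearson's r = 0.76, permutation p = 0.0029, adjusted p = 0.043, Spearman's rho = 0.78, permutation p = 0.0046, adjusted p = 0.052), and Adgre1 with Mrc1 (Pearson's r = 0.65, permutation p = 0.0020, adjusted p = 0.043, Spearman's rho = 0.75, permutation p = 0.0017, adjusted p = 0.026). Without the 2 tumors farthest from the median of the first gene, r was 0.96, 0.70 and 0.81 for the 3 pairs. Csf1 and Csf1r, ligand and receptor, had r = 0.76 (permutation p = 0.018, adjusted p = 0.076), which fell to 0.25 without the 2 farthest tumors and so rested on them. Arg1 and Nos2 had r = 0.43 (permutation p = 0.13, adjusted p = 0.38), and Adgre1 with C1qa had r = 0.03 (permutation p = 0.91, adjusted p = 0.97).

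**Figure D4:**
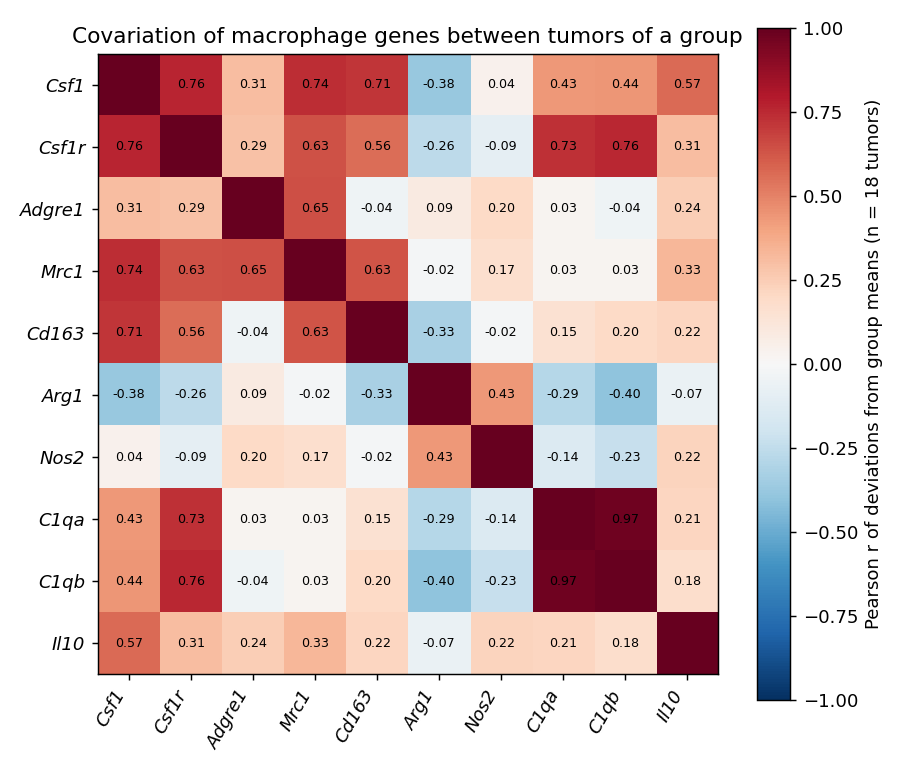
Pearson's r between the 10 genes (rows and columns) of deviations of log2(CPM + 0.5) from group means over 18 tumors, with red for positive and blue for negative values. C1qa and C1qb form the darkest pair at 0.97, Csf1r has 0.73 and 0.76 with them, and Arg1 and Nos2 have values below 0 with both C1q chains.

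Other genes of the same pathways were counted from lists, to be read beside the shares of all genes called higher and lower in D2.1, which were 16.8% and 15.8% in BALB/c and 17.2% and 14.8% in SCID-beige mice, with all-gene median log2 fold changes of -0.02 and 0.02. In the CSF1 receptor axis and myeloid transcription factors, calls for D2.1 against D2A1 tumors were 5 higher and 1 lower of 15 tested (median log2 fold change 0.26) in BALB/c and 6 higher and 2 lower of 15 tested (median log2 fold change 0.47) in SCID-beige mice. Cebpa, a myeloid transcription factor, was 123 ± 17.2 against 48.4 ± 13.6 CPM in BALB/c and 89.9 ± 14.99 against 37.2 ± 2.08 CPM in SCID-beige tumors (D2.1 against D2A1, mean ± SD). Il34, the other ligand of CSF1R, went opposite to Csf1 at 93.2 ± 16.9 against 40.4 ± 16.4 CPM in BALB/c tumors, while Cebpb was lower in D2.1 at 126 ± 27.2 against 209 ± 44.2 CPM. Pan-macrophage markers gave 2 higher and 4 lower of 18 tested (median log2 fold change -0.28) in BALB/c and 4 higher and 0 lower of 18 tested (median log2 fold change 0.39) in SCID-beige mice. Mertk, a receptor for clearing apoptotic cells, was higher in D2.1 in both hosts, at 25.6 ± 13.3 against 10.4 ± 2.20 CPM and 19.3 ± 4.80 against 8.62 ± 3.55 CPM. Trem2 and Cx3cr1 were lower in D2.1 BALB/c tumors, at 34.6 ± 2.06 against 73.2 ± 29.6 CPM and 67.5 ± 6.64 against 133 ± 28.2 CPM. Tissue-resident macrophage markers gave 0 higher and 0 lower of 11 tested (median log2 fold change -0.05) in BALB/c, with 1 called by DESeq2 and 1 at an unadjusted p under 0.05 by edgeR, and 2 higher and 2 lower of 10 tested (median log2 fold change -0.00) in SCID-beige mice.

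Activation genes did not fall on 1 side. Alternative-activation genes gave 4 higher and 2 lower of 15 tested (median log2 fold change 0.71) in BALB/c and 5 higher and 2 lower of 14 tested (median log2 fold change 0.16) in SCID-beige mice. Mgl2, the C-type lectin CD301b, was 58.8 ± 19.3 against 3.99 ± 0.813 CPM in BALB/c and 33.6 ± 20.7 against 2.53 ± 1.10 CPM in SCID-beige tumors, whereas the scavenger receptor Msr1 was lower in D2.1, at 18.6 ± 6.03 against 109.9 ± 13.9 CPM and 31.97 ± 19.8 against 77.96 ± 6.55 CPM. Classical-activation genes gave 4 higher and 2 lower of 15 tested (median log2 fold change 0.57) in BALB/c and 5 higher and 2 lower of 15 tested (median log2 fold change 0.68) in SCID-beige mice. Gbp5, an interferon-induced GTPase, was 77.4 ± 15.5 against 19.1 ± 6.42 CPM and 33.1 ± 7.44 against 5.49 ± 1.60 CPM, and Il12b, a subunit of interleukin 12, was 6.81 ± 0.596 against 0.515 ± 0.447 CPM and 2.18 ± 0.908 against 0.114 ± 0.127 CPM. Ptgs2, which encodes cyclooxygenase 2, was lower in D2.1, at 0.937 ± 0.717 against 5.18 ± 1.98 CPM and 0.732 ± 0.836 against 5.35 ± 4.59 CPM. Genes of both activation lists were thus called in both directions.

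Arginine metabolism genes other than Arg1 and Nos2 gave 1 higher and 5 lower of 11 tested (median log2 fold change -0.44) in BALB/c and 2 higher and 5 lower of 11 tested (median log2 fold change -0.72) in SCID-beige mice. Slc7a2, an arginine transporter, was lower in D2.1 along with both enzymes, at 4.13 ± 5.50 against 29.7 ± 11.4 CPM and 1.60 ± 1.10 against 38.1 ± 15.5 CPM. Ass1, which makes arginine from citrulline by way of argininosuccinate, was higher in D2.1, at 174 ± 57.8 against 29.2 ± 6.13 CPM and 115 ± 26.1 against 31.8 ± 7.43 CPM. Both differences were already present between the cultured lines, Slc7a2 at 0.126 ± 0.112 against 2.43 ± 0.438 CPM and Ass1 at 60.4 ± 3.18 against 17.5 ± 2.42 CPM. Odc1, the ornithine decarboxylase that acts downstream of arginase, was 90.8 ± 20.3 against 328 ± 14.3 CPM in BALB/c tumors and 202 ± 44.3 against 725 ± 127 CPM in culture. IL-10 pathway genes other than Il10 gave 4 higher and 0 lower of 7 tested (median log2 fold change 0.58) in BALB/c and 3 higher and 0 lower of 7 tested (median log2 fold change 0.33) in SCID-beige mice, with the receptor chain Il10ra at 89.2 ± 13.3 against 48.2 ± 17.04 CPM and 53.3 ± 12.2 against 22.4 ± 5.86 CPM. Complement genes other than C1qa and C1qb gave 1 higher and 2 lower of 14 tested (median log2 fold change -0.06) in BALB/c and 3 higher and 1 lower of 13 tested (median log2 fold change -0.39) in SCID-beige mice, and C3 was 275 ± 221 against 78.6 ± 21.3 CPM and 67.7 ± 9.64 against 31.4 ± 16.4 CPM. Beside these counts, the all-gene medians of the log2 fold change were -0.02 and 0.02.

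Without the 2 D2.1 BALB/c tumors that held milk or skin transcripts, the calls in BALB/c mice in either direction became 2 for the CSF1 receptor axis, 3 for pan-macrophage markers, 6 for alternative activation, 5 for classical activation, 6 for arginine metabolism, 1 for the IL-10 pathway and 0 for complement, in a comparison that then held fewer tumors and called 3350 genes in place of 4868. With 1 tumor left out in BALB/c mice, calls fell to 3 for the CSF1 receptor axis without D2A1 replicate 1, for pan-macrophage markers without D2A1 replicate 4 and for classical activation without D2A1 replicate 2, and rose to 2 for tissue-resident markers without D2.1 replicate 2. In SCID-beige mice, they fell to 5 for the CSF1 receptor axis without D2.1 replicate 2 or D2A1 replicate 1, and to 1 or 2 for tissue-resident markers without D2.1 replicate 1, 2 or 3 or D2A1 replicate 2, 4 or 5.

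**Figure D5:**
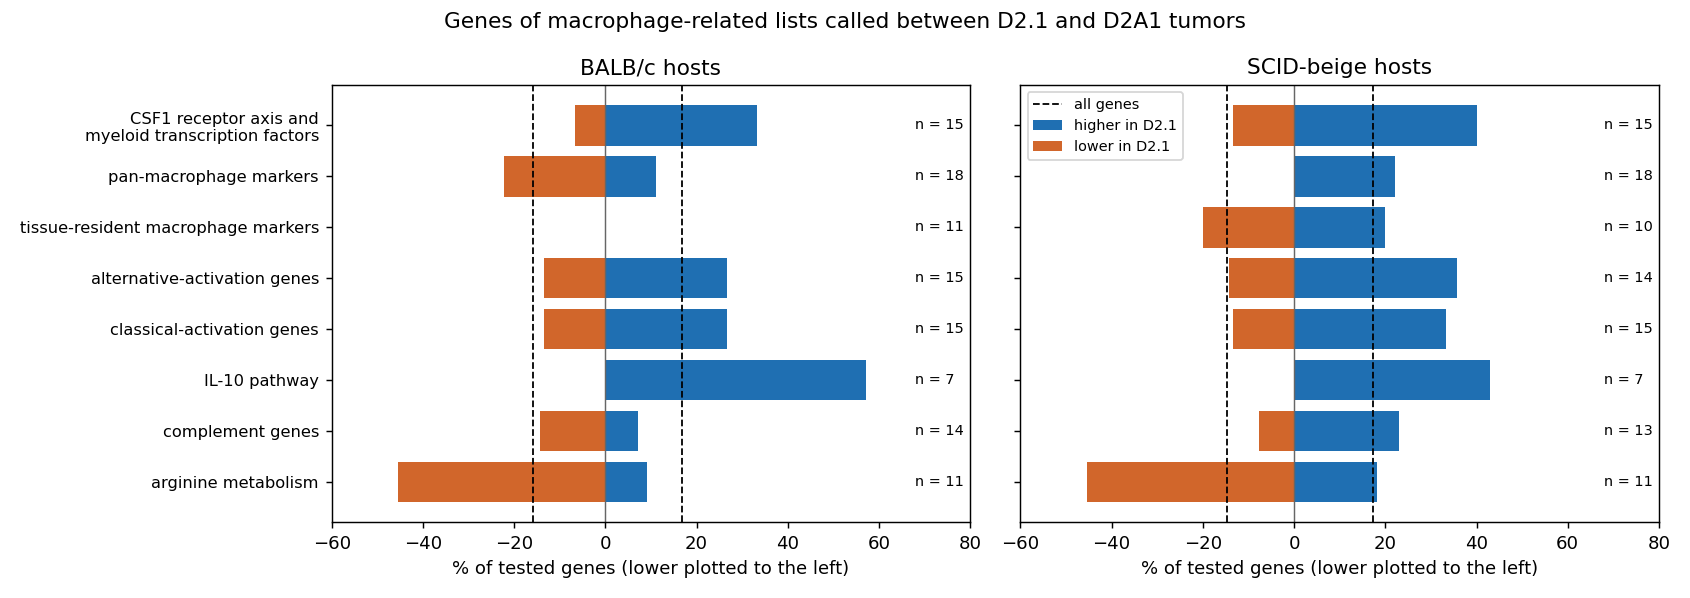
Share of the tested genes of each list called higher (blue, to the right) or lower (orange, to the left) in D2.1 than in D2A1 tumors, in percent, in BALB/c and SCID-beige hosts (dashed lines, the shares over all genes; n, genes tested). Arginine metabolism has the longest bars to the left in both hosts, and activation lists have bars on both sides.

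In the cultured lines, some genes of the macrophage lists were read without Csf1r or Adgre1. Stab1 and Cbr2 of the tissue-resident list were 25.1 ± 6.88 against 1.72 ± 1.03 CPM and 42.9 ± 13.2 against 3.26 ± 0.591 CPM in D2.1 against D2A1 cultures, and Mertk of the pan-macrophage list was 17.8 ± 0.607 against 2.87 ± 0.385 CPM. Beside 24.2% of all genes called higher and 20.7% called lower in D2.1 cultures, and an all-gene median log2 fold change of -0.02, calls in culture were 3 higher and 0 lower of 5 tested (median log2 fold change 2.02) for pan-macrophage markers, 2 higher and 0 lower of 2 tested (median log2 fold change 3.80) for tissue-resident markers and 6 higher and 0 lower of 8 tested (median log2 fold change 2.98) for the CSF1 receptor axis. Alternative activation gave 5 higher and 1 lower of 6 tested (median log2 fold change 1.72), classical activation 4 higher and 0 lower of 6 tested (median log2 fold change 1.28), the IL-10 pathway 4 higher and 0 lower of 6 tested (median log2 fold change 1.28), complement 1 higher and 2 lower of 6 tested (median log2 fold change -0.36) and arginine metabolism 2 higher and 4 lower of 9 tested (median log2 fold change -0.42). Pan-macrophage calls in culture numbered 5 without D2A1 replicate 3, and classical-activation calls numbered 7 without any single D2A1 culture. The part of tumor cells in the tumor differences of these lists was not tested.

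Between hosts, where 0.871% of all genes were called higher in BALB/c for D2.1 and 0.906% for D2A1, calls in these 8 lists were of classical-activation, complement, pan-macrophage and tissue-resident genes. In D2.1, 3 of 13 classical-activation genes and 1 of 14 complement genes were higher in BALB/c than in SCID-beige tumors, with Cxcl9, an interferon-gamma-induced chemokine, at 57.2 ± 23.4 against 9.53 ± 2.16 CPM. In D2A1, 4 of 18 pan-macrophage markers and 3 of 14 classical-activation genes were higher in BALB/c, along with 1 tissue-resident marker, a call lost without any single D2A1 tumor other than SCID-beige replicate 1. Before adjustment, 11 of 18 pan-macrophage markers had p under 0.05 in D2A1 and 4 of 18 in D2.1, with median log2 fold changes of 0.65 and 0.13. The unadjusted counts for D2A1 and D2.1 were 7 of 14 and 5 of 13 classical-activation genes, 9 of 13 and 7 of 14 complement genes, and 6 of 15 and 7 of 15 genes of the CSF1 receptor axis, a list with 0 adjusted calls in either line. No all-gene share at this unadjusted threshold is given here. In the interaction of line and host, 0 of 18 pan-macrophage, 0 of 15 classical-activation, 0 of 14 complement and 0 of 15 CSF1 receptor axis genes were called. Before adjustment, 7, 1, 1 and 0 of them had p under 0.05 by edgeR, again with no all-gene share given. The median interaction of the pan-macrophage markers was -0.60 on the log2 scale, beside -0.06 over all genes. In D2A1, Cybb, a subunit of the phagocyte NADPH oxidase, was 126 ± 28.8 against 49.1 ± 16.2 CPM in BALB/c against SCID-beige tumors. Cxcl9 was 67.6 ± 34.7 against 4.21 ± 0.855 CPM there. None of the 8 lists held a gene called lower in BALB/c in either line by edgeR. These counts rested on few tumors. The classical-activation count in D2.1 fell to 1 without BALB/c replicate 1 or 3 or SCID-beige replicate 1, and the complement call was lost without any single D2.1 tumor other than BALB/c replicate 2. In D2A1, pan-macrophage calls fell to 0 without BALB/c replicate 4 or SCID-beige replicate 1 or 4, to 1 without BALB/c replicate 1 or SCID-beige replicate 5 and to 2 without replicate 3 of either host, and classical-activation calls fell to 1 without BALB/c replicate 4.

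Markers of several other cell types also differed between the lines. Their calls are to be read beside the shares of all genes called higher and lower in D2.1. These were 16.8% and 15.8% in BALB/c and 17.2% and 14.8% in SCID-beige mice. Fibroblast markers summed to 840.4 to 1342 CPM in D2.1 against 144 to 151 in D2A1 BALB/c tumors and 463 to 1177 against 82.9 to 169.6 in SCID-beige tumors, without overlap, and all 5 fibroblast markers were tested, with 5 and 4 called higher in D2.1. Dendritic cell markers summed to 92.6 to 141 and 43.9 to 68.8 CPM in BALB/c tumors of D2.1 and D2A1, and 42.9 to 77.7 and 29.5 to 42.3 in SCID-beige tumors, with 5 of 7 called higher in D2.1 in either host, 1 called lower in SCID-beige mice and 2 called in BALB/c mice without the tumors with milk or skin transcripts. NK cell markers summed to 71.5 to 114 against 14.2 to 33.1 CPM in BALB/c and 23.4 to 64.5 against 7.72 to 18.9 in SCID-beige tumors, with 4 of 5 called higher in D2.1 in either host. Neutrophil markers summed to 59.03 to 90.6 against 26.7 to 45.8 CPM in BALB/c tumors (2 of 5 tested called higher). They overlapped in SCID-beige tumors at 41.3 to 130.3 against 31.6 to 160.1 (1 of 6, near the share of all genes, and 3 without D2A1 replicate 4). Mast cell and eosinophil markers summed to 17.7 to 40.97 against 13.3 to 17.2 CPM in BALB/c and 8.98 to 60.6 against 4.79 to 11.7 in SCID-beige tumors. Of 4 mast cell and eosinophil markers tested, 0 were called in BALB/c, where 1 had an unadjusted p under 0.05 by edgeR and DESeq2 called 1, and 3 were called higher in D2.1 in SCID-beige mice. Endothelial markers went the other way, with sums of 75.2 to 123 against 195 to 259 CPM in BALB/c and 51.2 to 87.001 against 175 to 253 in SCID-beige tumors, and 3 and 4 of 5 called lower in D2.1. T cell markers summed to 63.4 to 178 CPM in D2.1 and 9.28 to 26.7 in D2A1 BALB/c tumors, and to at most 14.7 CPM in SCID-beige tumors, with 7 of 7 called higher in D2.1 in BALB/c mice. In SCID-beige mice 2 were tested, of which Cd4 was called higher and Trac lower in D2.1. B cell markers summed to 7.29 to 93.8 against 0.309 to 0.832 CPM in BALB/c tumors, and 2 of 2 tested were called higher in D2.1. They summed to 2.39 to 5.95 against 0.185 to 0.557 CPM in SCID-beige tumors, where the 1 tested, Cd79b, was called higher in D2.1. Ptprc, the pan-leukocyte gene CD45, was 64.7 to 158 CPM in D2.1 and 32.1 to 74.6 in D2A1 BALB/c tumors, and was called in SCID-beige mice but not in BALB/c mice. Cultured cells also carried some of these markers. Fibroblast markers summed to 56.8 to 75.9 CPM in D2.1 and 5.07 to 11.02 in D2A1 cultures, mostly from Pdgfra at 65.1 ± 9.76 against 7.05 ± 3.28 CPM. NK cell markers summed to 4.07 to 6.10 and 27.2 to 32.7 CPM. The D2A1 sum was mostly Eomes, at 30.7 ± 2.96 CPM and called lower in D2.1 cultures (log2 fold change -4.703). The D2.1 sum was mostly Klrb1c, at 4.205 against 0.096 CPM in D2A1 and called higher in D2.1 cultures (log2 fold change 5.398). Klrb1c was also called higher in D2.1 tumors of both hosts. Dendritic cell markers summed to 0.979 to 2.25 and 6.40 to 9.26 CPM, the latter mostly Zbtb46 at a mean of 7.23 CPM. T cell markers summed to at most 2.02 CPM. The part of tumor cells in these sums was not tested. Nor was the part of these other cells in the differences of Adgre1, Mrc1, Cd163, Arg1 and Nos2.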

How the data were processed

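RNA-seq of 6 cultured and 18 tumor libraries was analysed from the deposited counts, which the authors gave as whole reads per gene without normalization, and from the FPKM values that the authors deposited beside them. The submitters' processing notes name STAR and mm10; the counting program, annotation and strand setting are not given in the sources used here. Identifiers were matched to GENCODE M21 for symbols. Groups came from the sample titles. The 10 genes and all lists were chosen with earlier results of these data known.

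Counts were fitted with edgeR 4.0.16 in R 4.3.3 (TMM normalization, default expression filter, robust quasi-likelihood test), with Benjamini-Hochberg adjustment over all genes tested and a threshold of 0.05. Only the groups compared entered a fit, except that the interaction used all 4 tumor groups. The SE is the log2 fold change divided by the square root of F, and CPM is TMM-normalized within cultures or tumors. Single values were tested by 2-sided exact permutation tests. All 10 genes are named in every comparison; from other lists, at most the 2 largest rises and the 2 largest falls that passed, where the higher group averaged 1 CPM or more. Culture and tumor tables were not tested against each other.

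In simulated data with 200 changed genes, edgeR recovered 93%, 75%, 89.5%, 79.5%, 86.5% and 58% of them for the lines in culture, in BALB/c and in SCID-beige mice, the hosts in D2.1 and in D2A1, and the interaction (run on 12489, 14953, 14355, 14929, 14572 and 16036 genes), and 5.10%, 5.66%, 2.72%, 7.02%, 6.49% and 0.855% of the calls were false, in the same order. Each planted change was larger than any host or interaction difference of these genes in the main fits. The shares recovered therefore do not give the power for differences of that smaller size. All 38 replicate pairs differed beyond sampling noise (chi-square per degree of freedom 5.20 or more). Deviations of libraries with the same replicate number correlated at 0.22 to 0.55 in culture and 0.14 to 0.57 between the lines in BALB/c mice. Libraries with different numbers reached 0.43 and 0.49, and the own number was the best match for 2 of 3 and 1 of 4. The numbers, taken from the titles, are therefore not shown to pair libraries, and a replicate block was run only as an alternative. Other alternatives were DESeq2 1.42.0, its size factors, no filter, a minimum of 10 counts, one fit of all tumors, each library left out, and, chosen after seeing the data, leaving out both D2.1 BALB/c tumors with milk or skin transcripts and leaving out each tumor from the ratios.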

Additional observations from a re-analysis of the deposited data

Results flagged for a closer look

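Arg1 at 16.2 CPM in D2.1 BALB/c replicate 1 stood far from the other 3 tumors of its group, which spanned 0.706 to 1.87 CPM. The gap to the nearest tumor was 0.925 of the whole range of the group. This tumor also held the highest sums of milk protein, adipocyte and skeletal muscle markers of the 4, at 391, 523 and 342 CPM, and their part in its Arg1 level was not tested.

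Arg1 at 8.71 CPM in D2.1 SCID-beige replicate 4 likewise stood apart from the other 4 tumors at 0.614 to 1.70 CPM, with a gap of 0.866 of the range. It had the lowest Csf1, Csf1r and Cd163 of its group, at 34.1, 154 and 4.53 CPM, and 255 CPM of muscle markers, while replicate 5 with 199 CPM of muscle markers had 1.38 CPM of Arg1. Chance flags about 1 in 20 groups, and 40 groups of these genes were examined.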

How the results depend on the processing

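Nos2 in both hosts, Arg1, Adgre1, Mrc1 and Csf1r in SCID-beige mice, Csf1 in BALB/c mice, and Csf1 and Cd163 in culture kept direction and call under every alternative run. Members called in culture numbered 2, and 4 with DESeq2 or without the filter. In BALB/c mice 5 were called, 3 to 5 with 1 tumor left out and 3 without both D2.1 tumors with milk or skin transcripts. In SCID-beige mice 6 were called, a number that varied with 1 tumor left out. Of those 10 fits, 5 kept the call of Cd163 and 2 added one of Csf1. For D2A1 between hosts, 1 was called, 0 with the replicate block and 0 to 1 with 1 tumor left out. Calls over all genes between hosts in D2.1 numbered 133, 590 with DESeq2, 275 without the filter, 261 in one fit of all tumors, 14 with the replicate block, 11 without both tumors with milk or skin transcripts and 26 to 314 with 1 tumor left out (BALB/c replicates 1 and 2). In D2A1 they numbered 170, 517 with DESeq2, 0 with the replicate block and 27 to 172 with 1 tumor left out (lowest without BALB/c replicate 4), and for the interaction 3, 104 with DESeq2, 6 with its size factors, 7 without the filter, 0 without both tumors and 0 to 12 with 1 left out. Between lines in SCID-beige mice the lowest correlation of same-numbered tumors was -0.17, although the own number was the best match for 3 of 5. Between hosts the lowest correlations were -0.25 and -0.53, with the own number the best match for 0 of 4 in either line. The numbers were not taken to pair these tumors. Under the replicate block, 5 members stayed called in BALB/c mice and 2 in culture. Correlated pairs of members numbered 3, 7 with FPKM and 1 to 6 with 1 tumor left out; 0 ratios to Csf1r passed under any alternative. Of 786 refitted fold changes of members, 733 kept direction and call, 26 lost the call, 6 gained one and 21 changed sign with no call in either fit. Most of the 786 were of differences not called in the main fit, which could not lose a call. In BALB/c mice the call held in 7 of 15 alternatives for Cd163, 11 of 15 for Adgre1 and 13 of 15 for Arg1. It held in 10 of 16 for Cd163 in SCID-beige mice and 9 of 15 for Csf1r between hosts in D2A1. The causes were not tested. Depth limits Il10 in all libraries and Nos2 in D2.1 tumors.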

Other observations

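Over the deviations of the 18 tumors from their group means, the pattern of each gene was compared with 12721 protein-coding genes of at least 1 CPM on average, as a description with no test, since the genes share libraries and depth. C1qa was closest to C1qc (r = 0.99, rho = 0.99), Hcls1 (r = 0.97, rho = 0.97) and Apoe (r = 0.96, rho = 0.95), of which C1qc encodes the remaining chain of C1q and Apoe a lipid carrier that macrophages make. C1qb was closest to C1qc (r = 0.98, rho = 0.98), Aif1 (r = 0.96, rho = 0.97) and Rgs10 (r = 0.96, rho = 0.94). Csf1r was closest to Cx3cr1 (r = 0.93, rho = 0.90), Man2b1 (r = 0.92, rho = 0.89) and Cmklr1 (r = 0.91, rho = 0.79), of which Cx3cr1 is the fractalkine receptor of monocytes and macrophages. Mrc1 was closest to Dab2 (r = 0.92, rho = 0.87), Prune2 (r = 0.90, rho = 0.87) and Prkacb (r = 0.88, rho = 0.88), and Adgre1 to E2f5 (r = 0.87, rho = 0.82), Ddias (r = 0.86, rho = 0.81) and Cybb (r = 0.86, rho = 0.87).

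Arg1 was closest to Csn3 (r = 0.82, rho = 0.44), Fam213a (r = 0.81, rho = 0.49) and Mylk2 (r = 0.81, rho = 0.59). Csn3 encodes a milk casein and Mylk2 a kinase of skeletal muscle, and for all 3 the rank correlation was well below r. Nos2 was closest to Col13a1 (r = 0.87, rho = 0.88), Adm2 (r = 0.83, rho = 0.74) and Ptgs1 (r = 0.82, rho = 0.79), and Cd163 to Ptpra (r = 0.87, rho = 0.81), Bbs9 (r = 0.79, rho = 0.77) and Fto (r = 0.79, rho = 0.82). Csf1 was closest to Wscd2 (r = 0.96, rho = 0.74), Cx3cr1 (r = 0.90, rho = 0.40) and Ltbp2 (r = 0.90, rho = 0.19), of which Ltbp2 had the widest gap between r and rho.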
